A study of Liolaemus parthenos with 3 samples.

Results

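Gypsy, Copia and BEL-Pao elements are retrotransposons flanked by long terminal repeats (LTR). In the deposited table of estimated read counts they make up 4 of 31 element subfamilies, named LTR/Gypsy, LTR/Copia, LTR/BEL/Pao and LTR/BEL/BEL. They were chosen by these names, with earlier results of these data known. In the separate quantification files of single assembled transcripts, 11 of 480 transcripts carry one of these names, 7 of Gypsy and 4 of Copia, while 0 carry a BEL-Pao name. RNA was taken from 3 organs of 1 adult lizard of the parthenogenetic, all-female species Liolaemus parthenos, namely its brain, its ovary and its liver. Each organ gave 1 library made without strand information, so transcription of an element and of a gene antisense to it look alike. All 3 groups therefore share the animal, and how far animals or repeat libraries would differ is unknown. The purpose stated with the series was to try a pipeline for active transposable elements on real data. Because the files name elements and no genes, the tissue labels could not be checked against marker genes.

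An LTR retrotransposon is transcribed from one long repeat to the other, and the RNA serves both as messenger for its gag and pol proteins and as the template that reverse transcriptase copies back into DNA. Gypsy and Copia are the classic groups of animals, plants and fungi and differ in the order of their pol enzymes: integrase precedes reverse transcriptase in Copia and follows it in Gypsy. BEL-Pao elements are known from animals. In the gonads of animals such elements are a main target of silencing by Piwi proteins with their small RNAs.

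The columns of the subfamily table were read by their names and are written Brain, Ovary and Liver with a capital. The sample records attach a file named for the liver to the ovary sample and a file named for the ovary to the liver sample. Values from the quantification files are therefore given by the record, as the ovary-record library and the liver-record library. Every statement that names ovary or liver, also one that sets brain against either, rests on these labels. The table held 5468656, 1143616 and 1717904 element reads in the Brain, Ovary and Liver columns, and the quantification files 16405 reads in brain, 4651 in the ovary-record and 10644 in the liver-record library. SINE3, a short interspersed element, took most reads of every column, so the share of any other subfamily moves with it. Leaving SINE3 out shifted every log2 ratio of shares by 1.38 for Brain/Ovary, 0.87 for Brain/Liver and -0.51 for Ovary/Liver. Taking LTR reads as the total shifted them by 1.82, 1.02 and -0.80 in the same order. The shifts with TMM factors were 1.03, -0.45 and -1.48, and those with median-of-ratios factors 0.88, -0.41 and -1.29. All 95% intervals below cover counting error only, and since reads carried no molecular identifiers they are not independent molecules.

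Together the 4 subfamilies had the highest share in Ovary. In such bulk RNA, fewer cells of a type and less RNA per cell cannot be told apart. They held 1.16% of all element reads in Brain (63537 reads, 95% interval 1.15 to 1.17), 5.89% in Ovary (67382 reads, 5.85 to 5.94) and 1.04% in Liver (17869 reads, 1.03 to 1.06). With SINE3 left out of the totals, the shares were 13.6% in Brain, 26.4% in Ovary and 6.62% in Liver. The Ovary column stood above both others on either total, whereas the order of the Brain and Liver columns was close with all reads and wider apart without SINE3. Of the reads of the LTR class alone, which includes DIRS and Ngaro, the 4 took 35.8% in Brain, 51.4% in Ovary and 15.8% in Liver. The endogenous retroviruses, the relatives of LTR retrotransposons that carry or once carried an envelope gene, took 19.2%, 22.7% and 68.8% of that class in the same order of columns. DIRS and Ngaro, which insert with a tyrosine recombinase in place of an integrase, took 45.0%, 26.0% and 15.5%. ERV2, an endogenous retrovirus subfamily, held 68760 of the 113445 LTR reads in Liver. It held 6624 of 177618 in Brain and 4775 of 131134 in Ovary. The share of any other LTR subfamily in the LTR reads of Liver thus moves with ERV2.

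Gypsy was the leading member in Brain. Its share of all element reads was 0.665% in Brain (36379 reads), 1.99% in Ovary (22727 reads) and 0.278% in Liver (4773 reads). It ranked 5 of 31 by reads in Brain and in Ovary and 11 of 31 in Liver. Brain and ovary were closer when other denominators were used: without SINE3 Gypsy held 7.76% in Brain, 8.89% in Ovary and 1.77% in Liver, and of LTR reads it held 20.5%, 17.3% and 4.21%. The Liver column was thus lowest for Gypsy on each of these 3 denominators, while the higher of the Brain and Ovary columns depended on the denominator.

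Pao, the BEL-Pao subfamily with most reads here, led the 4 in Ovary. Its share was 0.357% in Brain (19509 reads), 2.49% in Ovary (28497 reads) and 0.305% in Liver (5238 reads). Without SINE3 it was 4.16%, 11.1% and 1.94% in the same order. Pao ranked 8 of 31 by reads in Brain, 4 in Ovary and 10 in Liver. Ovary was the highest column for Pao on both totals.

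Of the 3 members with many reads, Copia had the lowest share in Brain. It held 0.140% of element reads in Brain (7649 reads), 1.41% in Ovary (16157 reads) and 0.457% in Liver (7853 reads). Without SINE3 the shares were 1.63% in Brain, 6.32% in Ovary and 2.91% in Liver. Copia ranked 12 of 31 in Brain and 7 in both others, and in Liver it passed Gypsy and Pao. These ranks are of reads and are not corrected for element length, which the table does not give.

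BEL had few reads anywhere in the table, with 0 reads in Brain, 1 in Ovary and 5 in Liver, and a single assembled transcript carries its name. The 0 of 5468656 reads in Brain allow a share of up to 5.49e-05% at 3 counts, against 0.000291% in Liver (9.45e-05 to 0.000679). The counting interval of the ratio of Brain over Liver reached up to 0.343. The ratio of Ovary over Liver was 0.300 (0.00635 to 2.68). With so few reads BEL stayed short of the 20 reads that a call required.

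**Figure D1:**
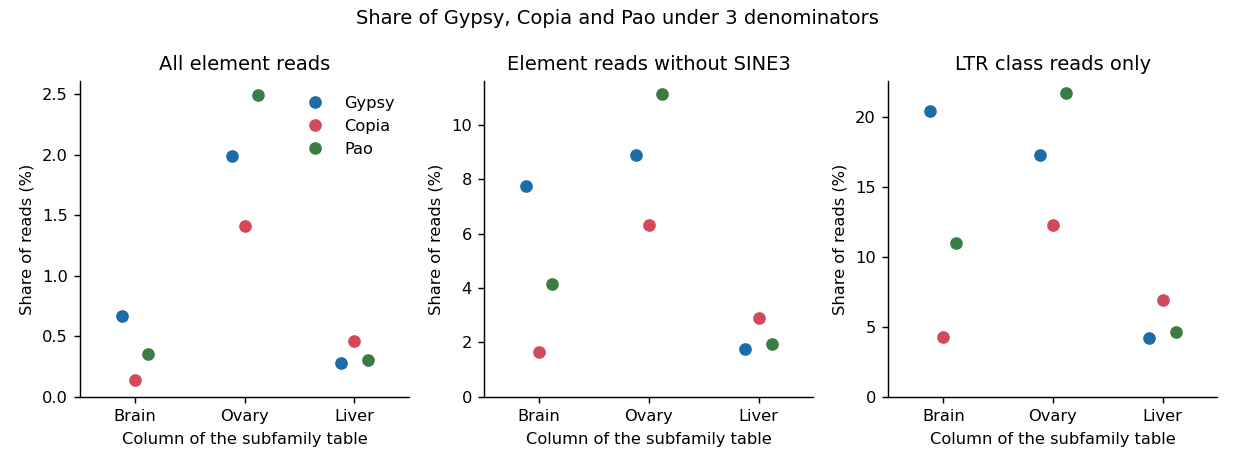
Share of reads (%) of Gypsy, Copia and Pao in the Brain, Ovary and Liver columns of the subfamily table, with all element reads, element reads without SINE3 or LTR class reads as the total. Each point is 1 library and counting intervals are smaller than the points; Pao in Ovary is the highest value in each panel, at 2.49%, 11.1% and 21.7%, and Gypsy, Copia and Pao lie closest together in Liver.

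The make-up of the 4 does not depend on the total of a library, because each ratio between members is taken within 1 library. Gypsy made up 57.3% of their reads in Brain (95% interval 56.9 to 57.6), 33.7% in Ovary (33.4 to 34.1) and 26.7% in Liver (26.1 to 27.4). Copia made up 12.04% in Brain (11.8 to 12.3), 24.0% in Ovary (23.7 to 24.3) and 43.9% in Liver (43.2 to 44.7). Pao made up 30.7% in Brain (30.3 to 31.1), 42.3% in Ovary (41.9 to 42.7) and 29.3% in Liver (28.6 to 30.0). By counts a different member therefore led in each column: Gypsy in Brain, Pao in Ovary and Copia in Liver.

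For each Gypsy read there were 0.210 Copia reads in Brain (0.205 to 0.216), 0.711 in Ovary (0.697 to 0.725) and 1.65 in Liver (1.59 to 1.71). This ratio of Copia to Gypsy was 3.38-fold lower in Brain than in Ovary, 7.83-fold lower in Brain than in Liver and 2.31-fold lower in Ovary than in Liver. Pao to Gypsy gave 0.536 reads per read in Brain (0.527 to 0.546), 1.25 in Ovary (1.23 to 1.28) and 1.10 in Liver (1.06 to 1.14). The Ovary and Liver columns were near each other in that ratio, and Brain was below both, by 2.34-fold and 2.05-fold.

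The authors also deposited a log2 CPM table of unstated scaling. It lists Gypsy, Copia and Pao but not BEL among its 27 subfamilies. Among these 3 it departs from the counts most for Copia, in Brain and in Ovary. Copia stood at 11.82 log2 CPM in Brain, 12.34 in Ovary and 12.23 in Liver of that table, against 10.45, 13.79 and 12.16 when computed plainly from the counts. The difference of deposited over plain value for Copia was 1.37 in Brain, the highest of the 27 subfamilies, where the median was 0.30. It was -1.44 in Ovary, the second lowest of the 27, where the median was -0.80. For Gypsy the same difference was -0.06 in Brain, -0.18 in Ovary and 0.24 in Liver. The Gypsy value in Ovary was the highest of the 27 there, above the median of -0.80. For Pao the difference was 0.13, -0.67 and 0.54 in the same order of columns. With the deposited values made linear, Copia took 26.0% of the 3 subfamilies in Brain, 13.5% in Ovary and 38.3% in Liver, so the order of the Brain and Ovary columns for Copia turned. The share of Gypsy was then close in Brain (45.9%) and Ovary (45.7%), and 26.2% in Liver. Gypsy then led in Ovary too, above Pao at 40.8%, while Copia still led in Liver.

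**Figure D2:**
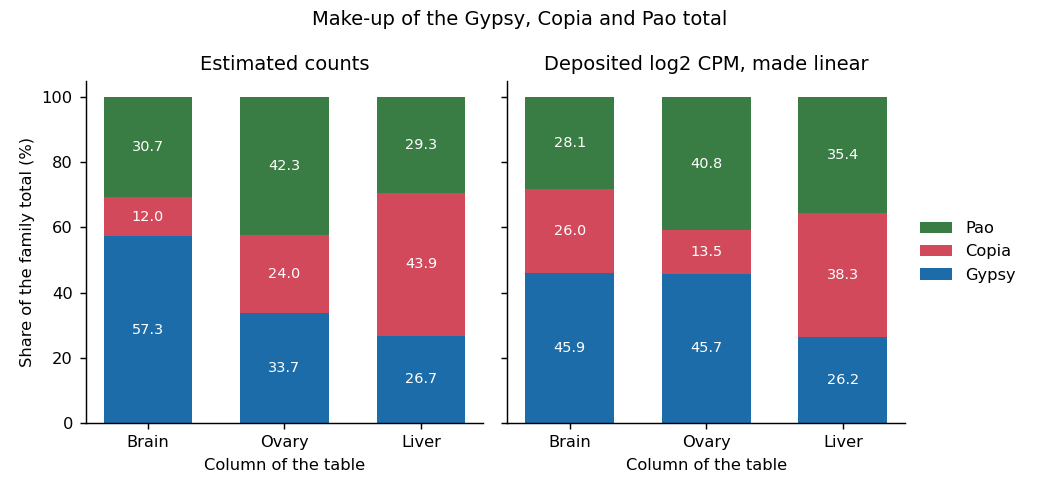
Share (%) of Gypsy, Copia and Pao in their total for the Brain, Ovary and Liver columns, from the estimated counts and from the authors' deposited log2 CPM made linear; BEL, at most 5 reads, is left out of the drawing. By counts the Copia part is 12.04%, 24.0% and 43.9%, while by deposited log2 CPM it is 26.0%, 13.5% and 38.3%.

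Brain was next set against ovary. With 1 library per tissue no test was possible, and a subfamily was called higher or lower when its share differed at least 2-fold, both libraries together held at least 20 reads and the counting interval of the ratio lay on one side of 1. Gypsy, Copia and Pao were lower in Brain than in Ovary, 3 of the 4 members, where 48.4% of all 31 subfamilies were lower, and 0 of the 4 were higher, where 3.23% of the 31 were. The median log2 ratio was -1.04 over the 28 subfamilies with enough reads and -1.77 over the 10 of these in the LTR class. Copia, at -3.34, was the second lowest of the 28 and Pao, at -2.80, the fourth lowest, while Gypsy, at -1.58, was the tenth lowest. Without SINE3 the log2 ratio was -1.95 for Copia and -1.42 for Pao, both still called lower, and -0.20 for Gypsy, which was not called. So 2 of the 4 were called, where 16.7% of the other 30 subfamilies were lower. With TMM factors, a scaling that trims extreme ratios, and with median-of-ratios factors the members called lower were again Copia and Pao, 2 of the 4 beside 16.1% of the 31 under each. In the deposited log2 CPM they were Gypsy and Pao, 2 of the 3 members listed there, beside 22.2% of its 27 subfamilies. Calls in the deposited log2 CPM had no counting interval and rest on the 2-fold limit and the 20 reads alone. Against the LTR class alone Copia was the single member called lower, 1 of the 4 beside 16.7% of the 12 LTR subfamilies, and Gypsy turned to a log2 ratio of 0.24.

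Between brain and liver the members split. Gypsy was higher in Brain than in Liver with a log2 ratio of 1.26, Copia was lower with -1.71, Pao was within 2-fold with 0.23, and BEL had too few reads. Thus 1 of the 4 was higher and 1 lower, where 19.4% of the 31 subfamilies were higher and 19.4% lower, and the median log2 ratio over the 28 with enough reads was 0.29. Copia was the second lowest of the 28 here as well. The direction for Gypsy and that for Copia were the same under all 6 scalings. Gypsy was called under 3 of the 6 and Copia under 3 of the 6, but both were called together only with all reads. Pao was above 0 under 3 and below 0 under 3. Without SINE3, Gypsy and Pao were higher, 2 of the 4 beside 63.3% of the other 30 subfamilies, and 0 were lower, beside 3.33%. Against the LTR class alone the same members were higher, 2 of the 4 beside 58.3% of the 12, and 0 were lower, beside 8.33%. ERV2 took most reads of that class in Liver. With TMM or with median-of-ratios factors 0 of the 4 were higher, beside 9.68% of the 31 under each, and Copia was lower, 1 of the 4 beside 19.4% under each. In the deposited log2 CPM, which lacks BEL, 0 of the 3 listed members were called in either direction, beside 7.41% of the 27 higher and 11.1% lower. A 3-fold limit left 0 of the 4 higher, beside 9.68%, and dropping the minimum of reads added BEL to Copia as lower, 2 of the 4 beside 22.6%.

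In the comparison of ovary with liver, Gypsy, Copia and Pao were higher in Ovary than in Liver, 3 of the 4 members, where 54.8% of the 31 subfamilies were higher, and 0 of the 4 were lower, where 3.23% of the 31 were. Their log2 ratios were 2.84, 1.63 and 3.03, beside a median of 1.54 over the 26 subfamilies with enough reads, and Pao was the third highest of the 26. Gypsy and Pao were called higher under all 6 scalings, with log2 ratios between 1.36 and 2.84 for Gypsy and between 1.55 and 3.03 for Pao. Copia stayed above 0 under all 6 but was called under 2, and its lowest log2 ratio was 0.11, in the deposited log2 CPM. Without SINE3 the 3 were called again, beside 43.3% of the other 30 subfamilies. The members called under the remaining scalings were Gypsy and Pao, 2 of the 4, beside 33.3% of the 12 LTR subfamilies against that class, 19.4% of the 31 with TMM factors, 22.6% with median-of-ratios factors and 22.2% of the 27 in the deposited log2 CPM. All of these directions would turn if the names of the ovary and liver columns were exchanged. The comparisons of brain with ovary and of brain with liver would then trade places.

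**Figure D3:**
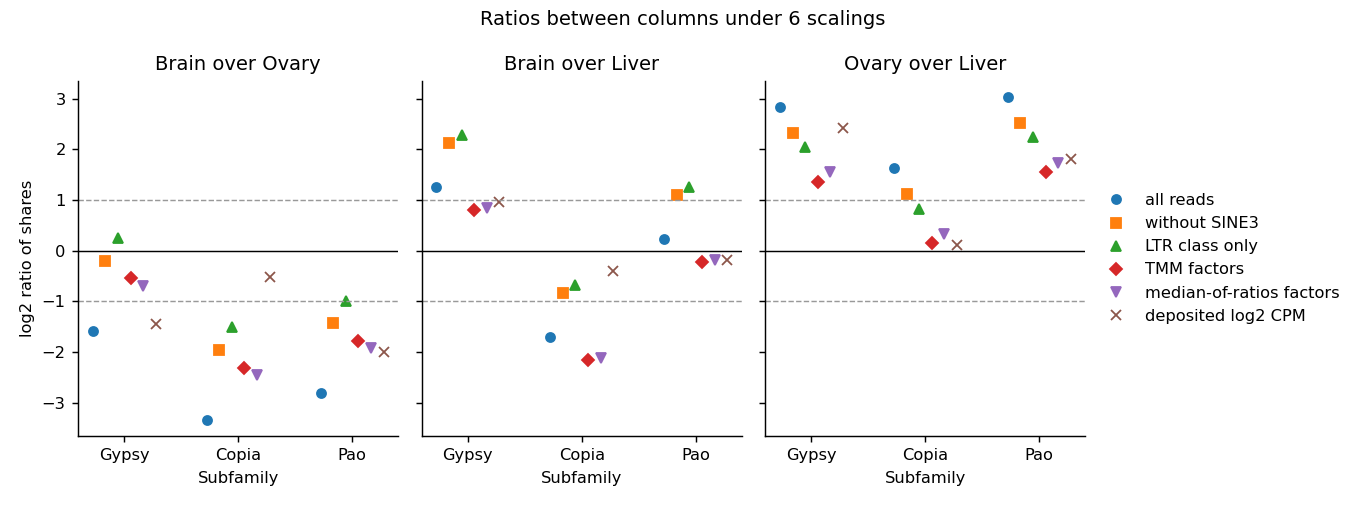
Log2 ratio of shares between 2 columns of the subfamily table for Gypsy, Copia and Pao under 6 scalings, with dashed lines at a 2-fold difference and a full line at 0. The Copia points lie below 0 in both comparisons of brain, and all points lie above 0 for ovary over liver, where the Copia points reach down to 0.11.

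The likeness of tissue patterns was described by the distance between subfamilies in 2 log2 ratios, brain over ovary and ovary over liver, for the 21 subfamilies with at least 100 reads in every column. The subfamilies share their libraries, so a small distance is a description. Scaling the libraries differently leaves distances between counted subfamilies as they are. The third ratio, brain over liver, was not part of the distance, and another choice of ratios can change the order of neighbours. Gypsy lay nearest to Penelope, a retroelement of an order apart from both LTR elements and LINEs, at 0.18, and further from L1 and NeSL, both long interspersed elements, at 1.04 and 1.10. Copia lay nearest to SINEU, a short interspersed element, at 0.56, then to Pao at 1.5004 and L1 at 1.55. The nearest to Pao were SINEU at 0.99, Gypsy at 1.24 and Penelope at 1.24. In brain over liver, however, Pao and SINEU differed in sign, with log2 ratios of 0.23 and -1.13. Gypsy and Penelope had the sign of Pao there, at 1.26 and 1.05. Gypsy and Copia were 2.13 apart, farther from each other than either was from its nearest 3 neighbours.

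**Figure D4:**
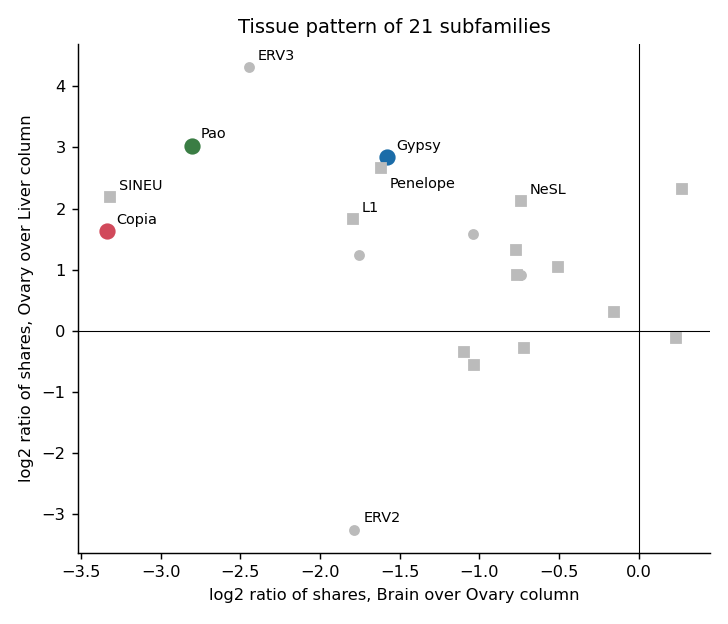
Log2 ratio of shares of Brain over Ovary (x axis) and of Ovary over Liver (y axis) for the 21 subfamilies with at least 100 reads in every column; circles are LTR class subfamilies, squares are others, and Gypsy, Copia and Pao are coloured. Gypsy lies beside Penelope, at a distance of 0.18, and Copia and Pao lie at the left beside SINEU.

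The authors' table of element names gives the assembled sequences that carry each name, and holds no reads. It names 576 transcripts as Gypsy, 340 as Copia, 342 as Pao and 1 as BEL, out of 19207. By the component in the transcript name, which groups sequences assembled together, Gypsy spread over 341 components, Copia over 213 and Pao over 163. Of these, 87 Gypsy, 47 Copia and 65 Pao components held more than 1 transcript of that name, up to 16 for Gypsy, 8 for Copia and 12 for Pao. In 0 components did a member share the component with another element name, which happened in 14 of all 13427 components. The quantification files hold 7 of the 576 Gypsy transcripts (1.22%), 4 of the 340 Copia transcripts (1.18%) and 0 of the 342 Pao transcripts, beside 2.49% of all named transcripts.

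The 11 transcripts came from 11 components and were short, 206 to 629 bases with a median of 334, beside a median of 284 for all 480. They held 81 reads in brain, 10 in the ovary-record library and 18 in the liver-record library, which is 0.184%, 0.0257% and 0.143% of the Gypsy and Copia reads of the table columns named for the same tissues. The files are small for all elements, with 16405 reads in brain, 4651 in the ovary-record and 10644 in the liver-record library. The Brain, Ovary and Liver columns hold 5468656, 1143616 and 1717904. The files are therefore a small sample of these elements, as of the others. Reads were found for 9 of the 11 transcripts in brain, 8 in the ovary-record library and 5 in the liver-record library. Beside these stand 92.7%, 54.6% and 60.4% of all 480. When each library was reduced by calculation to 4651 reads, the expected share with a read was 70.2%, 72.7% and 27.2% for the 11 and 78.0%, 54.6% and 47.1% for all 480.

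Gypsy transcripts had their highest summed share in brain. Their summed share of the file was 0.390% in brain (64 reads, 95% interval 0.301 to 0.498), 0.151% in the ovary-record library (7 reads, 0.0605 to 0.310) and 0.0376% in the liver-record library (4 reads, 0.0102 to 0.0962). As TPM, which corrects for length, Gypsy summed to 7470 in brain, 3260 in the ovary-record library and 1309 in the liver-record library. Brain exceeded the ovary-record library 2.59-fold (1.19 to 6.71) and the liver-record library 10.4-fold (3.86 to 39.3), both past the rule. The first of these goes the other way from the subfamily table with all reads, where Gypsy was 2.99-fold lower in Brain than in Ovary (2.94 to 3.04). In the subfamily table that direction depends on the total. The log2 ratio there was -0.20 without SINE3 and 0.24 with LTR reads as the total. With LTR reads as the total in the quantification files, Gypsy took 1.18% in brain and 0.427% in the ovary-record library. For the ovary-record over the liver-record library the ratio was 4.005 (1.02 to 18.7) on 11 reads, too few for a call. At 4651 reads, 75.0% of the 7 would be expected with a read in brain, 71.4% in the ovary-record and 22.2% in the liver-record library. The same shares of all 480 were 78.0%, 54.6% and 47.1%.

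The transcript with most reads among the 11 was a Gypsy transcript of 629 bases, TRINITY_DN142293_c0_g1_i2, 1 of 4 named transcripts in its component. It had 20 reads in brain, 2 in the ovary-record library and 2 in the liver-record library, or 967, 330 and 237 TPM. Its share in brain exceeded that in the liver-record library 6.49-fold (1.58 to 57.3), and it was the only one of the 11 with enough reads in that pair. Of all 480 transcripts, 14.4% were higher there and 4.58% lower. Only 135 of the 480 had enough reads in that pair, and 69 of these were higher and 22 lower. Between brain and the ovary-record library its ratio was 2.84 (0.689 to 25.0), so the interval included 1. In that pair 0 of the 11 were called, where 9.58% of the 480 were higher and 2.71% lower. Enough reads were held by 118 of the 480, and 46 of these were higher and 13 lower. In the third pair, 0 of the 11 had 20 reads, and 4.38% of the 480 were higher and 4.38% lower. There 61 of the 480 had enough reads, with 21 higher and 21 lower. Without TRINITY_DN142293_c0_g1_i2 the Gypsy ratio for brain over the ovary-record library was 2.49 (0.992 to 8.06), and the call was lost. As TPM, TRINITY_DN142293_c0_g1_i2 itself was past 2-fold for brain over the ovary-record library, beside 12.7% of the 480, or 61 of the 118 with enough reads. With no minimum of reads, 4 of the 11 were higher and 1 lower in brain than in the liver-record library, beside 27.9% and 7.92% of the 480.

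A second Gypsy transcript, TRINITY_DN65043_c0_g1_i1 of 345 bases, had 18 reads in brain, 1 in the ovary-record library and 0 in the liver-record library. It and the transcripts named after it were singled out once their values had been seen. Of the other 5 Gypsy transcripts, TRINITY_DN216984_c0_g1_i1 and TRINITY_DN86479_c0_g1_i2 had 9 reads each in brain and 1 each in the ovary-record library. TRINITY_DN136577_c0_g1_i1 had 6 reads in brain, 0 in the ovary-record library and 1 in the liver-record library. TRINITY_DN154548_c0_g1_i1 had 2 reads in brain, 2 in the ovary-record library and 0 in the liver-record library, and was the single Gypsy transcript with a lower share in brain than in the ovary-record library. TRINITY_DN121549_c6_g1_i1 had 0 reads in all 3 libraries. In brain the Gypsy reads were thus spread over 6 of the 7 transcripts.

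Copia transcripts were without a call by reads in each of the 3 pairs. Their summed share was 0.104% in brain (17 reads, 0.0604 to 0.166), 0.0645% in the ovary-record library (3 reads, 0.0133 to 0.188) and 0.132% in the liver-record library (14 reads, 0.0719 to 0.221). The TPM sums were 3255, 1334 and 3180 in the same order, and as TPM, without a counting interval, brain was past the 2-fold limit over the ovary-record library, at 2.44-fold. The intervals of the shares overlap. The ratio was 1.61 for brain over the ovary-record library (0.465 to 8.56), 0.788 for brain over the liver-record library (0.366 to 1.73) and 0.490 for the ovary-record over the liver-record library (0.0904 to 1.76).

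Most Copia reads of the liver-record library came from a single transcript. TRINITY_DN78893_c0_g1_i1, of 536 bases, had 0 reads in brain, 1 in the ovary-record library and 13 of the 14 Copia reads in the liver-record library, where it reached 2661 TPM. Its share in the liver-record library was 0.122% (0.0650 to 0.209), and the 0 of 16405 reads in brain allow up to 0.0183% at 3 counts. The counting interval of its ratio for brain over the liver-record library reached up to 0.213, on 13 reads, too few for a call. The other 3 Copia transcripts had their highest read count in brain, the library with most reads. TRINITY_DN193395_c0_g1_i1 had 8 reads in brain, 1 in the ovary-record library and 0 in the liver-record library. TRINITY_DN217820_c0_g1_i1 had 5, 1 and 1 reads, and TRINITY_DN139167_c0_g1_i1 had 4, 0 and 0. Without TRINITY_DN78893_c0_g1_i1, Copia stood at 17 reads in brain and 1 in the liver-record library, a ratio of 11.03 (1.73 to 461). These 18 reads are too few for a call. The transcript led Copia through its liver-record reads, so leaving it out was bound to raise this ratio, and the interval does not allow for that choice.

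**Figure D5:**
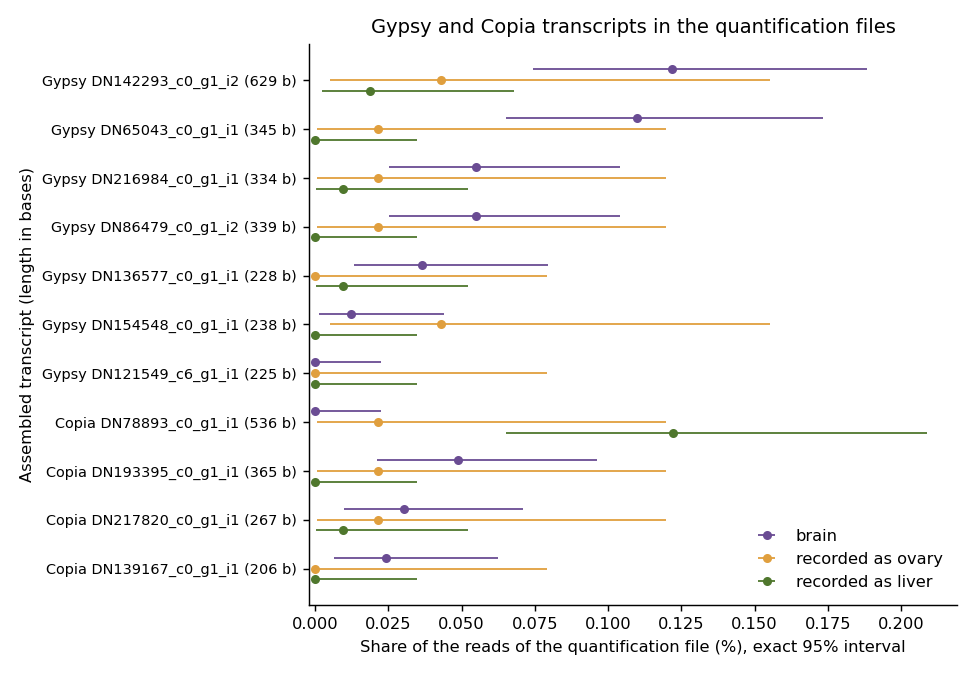
Share (%) of the reads of each quantification file for the 7 Gypsy and 4 Copia transcripts, with exact 95% counting intervals, in brain and in the ovary-record and liver-record libraries. The files hold 16405 reads in brain, 4651 in the ovary-record and 10644 in the liver-record library. The Gypsy transcript TRINITY_DN142293_c0_g1_i2 has 20 reads in brain. The Copia transcript TRINITY_DN78893_c0_g1_i1 has 13 reads in the liver-record library and 0 in brain.

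The balance of Copia and Gypsy could be set side by side in both kinds of data. Of the reads of both, Copia took 20.99% in brain (17 of 81 reads, 12.7 to 31.5), 30.0% in the ovary-record library (3 of 10, 6.67 to 65.2) and 77.8% in the liver-record library (14 of 18, 52.4 to 93.6). As TPM these shares were 30.4%, 29.0% and 70.8%. In the subfamily table Copia took 17.4% of both in Brain (17.0 to 17.7), 41.6% in Ovary (41.1 to 42.0) and 62.2% in Liver (61.3 to 63.0). By reads the order of the 3 tissues was the same in the table and, by record, in the files, but the interval of the ovary-record library includes the brain value and overlaps the interval of the liver-record library, and 13 of the 14 Copia reads in the liver-record library came from 1 transcript.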

How the data were processed

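The subfamily table holds estimated counts deposited by the authors, sums of fractional read assignments. The second table, deposited by the authors, holds log2 CPM; base 2 was read from the values, and no source used here gives its scaling. The quantification files, in Salmon's layout per the file headers, hold estimated counts and TPM as deposited, and TPM sums to 1000000 over their 480 transcripts. The submitters' processing notes list Bowtie2 2.3.4.1; for its role, the assembler and the repeat annotation: not given in the sources used here. Shares have exact Clopper-Pearson 95% intervals, and ratios exact conditional binomial 95% intervals on counts rounded to whole reads (Python 3.11.15, scipy 1.17.1). Only the ratio intervals and the call rule were tried on simulated data, with independent counts. That check does not cover reads that are not independent. For a count of 0, the share of 3 reads is given as its limit. Scalings were all reads, reads without SINE3, LTR reads, TMM factors (edgeR 4.0.16, on rounded counts), median-of-ratios factors and the deposited log2 CPM. All 4 subfamilies and 11 transcripts are covered; the rule named singly a transcript with at least 20 reads over the 3 files, which 1 met. Members, lists and rules were chosen with earlier results of these data known. No sequence of an element was used here.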

Additional observations from a re-analysis of the deposited data

How the results depend on the processing

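Intervals cover counting error in 1 library per tissue, and which of the exchanged file names is right was not settled. No paired analysis was possible because each tissue has 1 library and the labels give no replicate numbers, so no replicate was left out. Depth limits BEL, with 6 reads in all, and the 11 transcripts.

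Log2 ratios of shares are given for Gypsy, Copia, Pao and the sum of the 4, in this order. Without SINE3 they were -0.20, -1.95, -1.42 and -0.96 for brain over ovary, 2.13, -0.84, 1.10 and 1.03 for brain over liver and 2.33, 1.12, 2.52 and 1.99 for ovary over liver. With LTR reads as the total they were 0.24, -1.52, -0.98 and -0.52 for brain over ovary, 2.28, -0.68, 1.25 and 1.18 for brain over liver and 2.04, 0.83, 2.23 and 1.71 for ovary over liver. With TMM factors they were -0.55, -2.31, -1.77 and -1.31 for brain over ovary, 0.81, -2.16, -0.22 and -0.29 for brain over liver and 1.36, 0.15, 1.55 and 1.02 for ovary over liver. With median-of-ratios factors they were -0.70, -2.45, -1.92 and -1.46 for brain over ovary, 0.85, -2.12, -0.18 and -0.25 for brain over liver and 1.55, 0.34, 1.74 and 1.21 for ovary over liver. In the deposited log2 CPM, a scaling added after seeing the data, they were -1.46, -0.52, -2.00 and -1.46 for brain over ovary, 0.96, -0.41, -0.18 and 0.15 for brain over liver and 2.42, 0.11, 1.82 and 1.62 for ovary over liver. The summed ratio there covers Gypsy, Copia and Pao, since BEL is not listed. A scaling other than the last moves all members alike; the cause of the departures in the deposited log2 CPM was not tested. Of the ratios called with all reads, the only change of sign under these scalings was that of Gypsy for brain over ovary with LTR reads as the total, at 0.24; the uncalled Pao and summed ratios for brain over liver changed sign too. The number of the 4 subfamilies lower for brain over ovary was 1 with LTR reads as the total, beside 16.7% of the 12 LTR subfamilies. For brain over liver, the number higher was 2 without SINE3, beside 63.3% of the other 30 subfamilies. It was also 2 with LTR reads as the total, beside 58.3% of the 12. With TMM factors, with median-of-ratios factors and at a 3-fold limit it was 0, beside 9.68% of the 31 under each. In the deposited log2 CPM, which lacks BEL, it was 0, beside 7.41% of the 27. The number lower in that pair was 0 without SINE3, beside 3.33%, and 0 with LTR reads as the total, beside 8.33%. It was 0 in the deposited log2 CPM, again without BEL, beside 11.1%. With no minimum of reads, which adds BEL, it was 2, beside 22.6% of the 31.

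In the quantification files, leaving out the leading Copia transcript moved the log2 ratio of Copia to 3.46 for brain over the liver-record library. That transcript led through its 13 liver-record reads, so a rise was bound to follow. The value of 3.46 rested on 17 reads against 1, with a counting interval of 0.79 to 8.85 in log2. For the ovary-record over the liver-record library the log2 ratio moved to 2.19, on 2 reads against 1 (-2.07 to 8.08). Both ratios had too few reads for a call. The number of the 11 transcripts higher for brain over the ovary-record library was 1 as TPM, beside 12.7% of the 480. That was 61 of the 118 with enough reads. For brain over the liver-record library, with no minimum of reads, 4 were higher and 1 lower, beside 27.9% and 7.92% of the 480. The make-up from the deposited log2 CPM was 45.9% Gypsy, 26.0% Copia and 28.1% Pao in Brain. In Ovary it was 45.7%, 13.5% and 40.8% in the same order, and in Liver 38.3% Copia and 35.4% Pao. Rounding the counts left all 12 shares of the make-up within their intervals.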
